A study of Mus musculus with 16 samples.

Results

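Notch receptors, their ligands and their direct targets were followed across 4 mouse induced pluripotent stem cell (iPSC) lines. The members were taken by gene name: the receptors Notch1, Notch2, Notch3 and Notch4, the ligands Dll1, Dll4 and Jag2, the target genes Hes1 and Hey1, and Lfng, whose product modifies the receptors. All 10 were found among the 43984 genes of the histone table and among the 55471 genes of the DNA methylation table. PTC11 and PTC12 were made from kidney proximal tubule cells (PTC), and TTF1 and TTF4 from tail tip fibroblasts (TTF). All of the lines came from young adult quadruple transgenic mice that carried SLC34a1-GCE and tdTomato together with rtTAROSA (neo-in) and OKMS-250, and PTC and TTF were isolated from littermates. SLC34a1-GCE places GFP and a tamoxifen-dependent Cre under the Slc34a1 promoter, which is used by proximal tubule cells, and PTC were sorted for tdTomato and GFP after the mice had received tamoxifen. TTF do not use that promoter and were given Cre on an episomal plasmid. Doxycycline then switched on Oct4, Klf4, c-Myc and Sox2 in both cell types. Each line was 1 clone that had become independent of doxycycline. The methods describe the methylation replicates as independent animals, but no line is tied to a named mouse in the sources used here, so the spread between lines can be that of clones and of animals. H3K4me3, H3K36me3 and CpG methylation had 1 library per line each, so the line was the replicate, with n = 2 per origin.

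Notch receptors are cell surface proteins that are cut when a ligand on a neighbouring cell binds them. The released intracellular part enters the nucleus, joins the DNA binding protein Rbpj and switches on targets such as the Hes and Hey repressors. In the developing nephron Notch signalling takes part in the choice of proximal fates, and in pluripotent cells it is linked to exit towards germ layer fates. H3K4me3 is a histone mark at the start of genes that are active or poised, H3K36me3 lies over gene bodies that are transcribed, and methylated CpGs at a promoter usually accompany a silent gene. These are general properties. RNA was not analysed here, and a mark at a gene is not a measure of its expression.

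The 4 lines carried H3K4me3 at the start of 8 of the 10 genes, in every line, and H3K36me3 over all 10. Of all 43984 listed genes, 31.2% had an H3K4me3 value in every line and 38.7% an H3K36me3 value. Among protein coding genes listed within 1000 bp of their main transcript's start, 45.6% had H3K4me3 in every line. The share was 83.8% at 37 other Notch pathway genes of that kind. Methylation at the start was low at 9 of the 10 genes relative to the mean of all genes. The median over protein coding genes listed near their main transcript's start was also below that mean in every line. Notch1 stood apart from the others in both measures at its listed start, with H3K4me3 in 1 line only and the highest methylated fraction in every line. That listed start lies 12841 bp from the start of its main transcript, and the part of this distance was not tested. No member passed the test of a difference between PTC and TTF iPSCs in any of the 3 assays.

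The deposited tables list each gene as a span on mm10, and the 5′ end of the span in the methylation table is taken below as its transcription start site (TSS), because the TSS behind the values was not given in the sources used here. For Notch1, listed at chr2:26457903-26516663 on the minus strand, that end lies 12841 bp upstream of the start of the principal transcript in GENCODE M21. It is the start of another annotated transcript of the gene. Within 1000 bp of the listed end the reference holds 28 CpGs, and within 1000 bp of the principal start it holds 129. The histone table lists the same end for Notch1. For the other 9 members the distance in the methylation table was 956 bp at most, with Hes1 at 956 bp, Dll1 at 896 bp, Notch2 at 11 bp and the remaining 6 at 0 bp. Of these 9, 5 have another 5′ end in the histone table, which lies 281 bp from the principal start at Jag2, 217 bp at Hey1, 28 bp at Notch3, 21 bp at Lfng and 0 bp at Notch2. In the methylation table the listed spans of the 9 are chr3:98013527-98150361 (plus strand) for Notch2, chr17:32120820-32166852 (minus) for Notch3, chr17:34564268-34588503 (plus) for Notch4, chr17:15367354-15376872 (minus) for Dll1, chr2:119325784-119335962 (plus) for Dll4, chr12:112907819-112929776 (minus) for Jag2, chr16:30064384-30067796 (plus) for Hes1, chr3:8663359-8667256 (minus) for Hey1 and chr5:140607320-140615545 (plus) for Lfng. Among protein coding genes with a principal transcript, 1016 genes, or 5.88%, were listed in the methylation table more than 1000 bp from its start. These 1016 genes had a median methylated fraction of 0.268 in PTC11 and 0.402 in PTC12, against 0.264 in TTF1 and 0.712 in TTF4. At the 16275 genes listed within 1000 bp the medians in the same order were 0.165, 0.226, 0.166 and 0.420. H3K4me3 was present in all 4 lines at 38.8% of the former and 45.6% of the latter. The part of this distance in the Notch1 values was not tested.

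The sequences at these starts show how much the members differ in CpG content. Of the 10 members 8 matched the RefSeq promoter windows of assembly GRCm38.p6, all but Hes1 and Hey1. The windows run from 250 bases before to 50 bases after a RefSeq start. Dll1 had a pair of windows, so there were 9. Both windows of Notch1 are printed, the second one cut in the same way at the listed 5′ end, together with Notch4, which had the fewest CpGs among the RefSeq windows, and Jag2, which had the most. Each sequence is written 5′ to 3′ on the strand of the gene, and capitals mark CpG.
Notch1, RefSeq start, chr2:26503773-26504072, minus strand: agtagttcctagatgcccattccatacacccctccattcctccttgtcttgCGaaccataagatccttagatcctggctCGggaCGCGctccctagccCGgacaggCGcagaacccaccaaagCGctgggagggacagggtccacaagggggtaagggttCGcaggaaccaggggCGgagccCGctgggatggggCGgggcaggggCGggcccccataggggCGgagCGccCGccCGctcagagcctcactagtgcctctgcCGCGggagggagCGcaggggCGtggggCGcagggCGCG
Notch1, listed 5′ end, chr2:26516614-26516913, minus strand: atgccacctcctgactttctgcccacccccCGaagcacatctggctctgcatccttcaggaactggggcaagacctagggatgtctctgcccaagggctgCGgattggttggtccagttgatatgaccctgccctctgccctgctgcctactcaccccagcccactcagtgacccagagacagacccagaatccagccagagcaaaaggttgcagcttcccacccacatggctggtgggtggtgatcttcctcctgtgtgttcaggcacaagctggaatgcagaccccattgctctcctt
Notch4, chr17:34564045-34564344, plus strand: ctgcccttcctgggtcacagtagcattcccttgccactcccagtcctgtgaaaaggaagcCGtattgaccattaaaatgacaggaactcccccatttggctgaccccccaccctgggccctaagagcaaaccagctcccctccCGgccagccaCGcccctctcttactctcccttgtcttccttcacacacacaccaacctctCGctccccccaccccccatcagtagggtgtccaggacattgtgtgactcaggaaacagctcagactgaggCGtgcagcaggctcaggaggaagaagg
Jag2, chr12:112929446-112929745, minus strand: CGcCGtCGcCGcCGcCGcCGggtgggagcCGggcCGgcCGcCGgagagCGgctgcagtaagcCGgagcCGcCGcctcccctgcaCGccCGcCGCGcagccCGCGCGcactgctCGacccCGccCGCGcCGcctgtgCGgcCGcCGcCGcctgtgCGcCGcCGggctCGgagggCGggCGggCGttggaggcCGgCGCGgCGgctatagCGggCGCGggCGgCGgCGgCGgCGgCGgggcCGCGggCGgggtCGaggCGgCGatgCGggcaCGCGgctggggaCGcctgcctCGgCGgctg

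The Notch1 window at the RefSeq start held 23 CpGs and the one at the listed end held 2. Notch4 held 5, Jag2 held 63, and the median over 32817 RefSeq windows was 7. Between these extremes, Dll4 held 17 CpGs, Lfng 22, Notch3 25, Notch2 41, and the windows of Dll1 held 24 and 15. The motif TGGGAA, the core that Rbpj binds, was searched on both strands. It occurred in 1 of the 9 windows, that of Lfng with 2 matches, and in 25.6% of all windows. The window at the listed end of Notch1 held 1 match and the one at its RefSeq start held 0. The E box CACGTG, a site type of Hey proteins, was found in 1 of 9, again Lfng, against 7.15% of all windows. In Lfng the E box overlaps a TGGGAA match. The N box CACNAG, a site type of Hes proteins, was present in 6 of 9 against 42.5% of all windows. Such matches are descriptions of the letters in a window.

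The identity of the lines was checked on genes that define cell types. Of 10 pluripotent stem cell markers, 8 carried H3K4me3 in all 4 lines, Pou5f1 and Sox2 among them, Zfp42 had no value in TTF4, and Esrrb had none in any line. Of 8 proximal tubule markers, 5 had no H3K4me3 in any line, Slc34a1 among them, and 1, Lrp2, had it in all 4. The remaining markers, Aqp1 and Hnf4a, had it in PTC12 only, at 2.84 and 3.14 RPKM. Of 8 fibroblast markers, 2 had none in any line, Col3a1 and S100a4, and 1, Thy1, had it in all 4. Col1a1, Col1a2 and Pdgfra lacked a value in PTC11 only and Twist2 in TTF4 only, while Pdgfrb had one in PTC12 and TTF1. Line and assay differed in overall level. H3K4me3 had a median of 3.69 RPKM in PTC11 and 3.65 in TTF4 but 4.59 in PTC12 and 5.01 in TTF1. H3K36me3 had a median of 1.60 RPKM in PTC11 and 1.18 in TTF1 but 3.88 in PTC12 and 4.01 in TTF4. The mean methylated fraction was 0.372 in PTC11 and 0.482 in PTC12, against 0.379 in TTF1 and 0.649 in TTF4. RPKM here is read density in a peak, scaled to peak length and to sequencing depth, minus that of the input. Genes where no peak was kept are blank in the table. Mapped reads and coverage are unknown for these values, so no counting interval can be given.

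**Figure D1:**
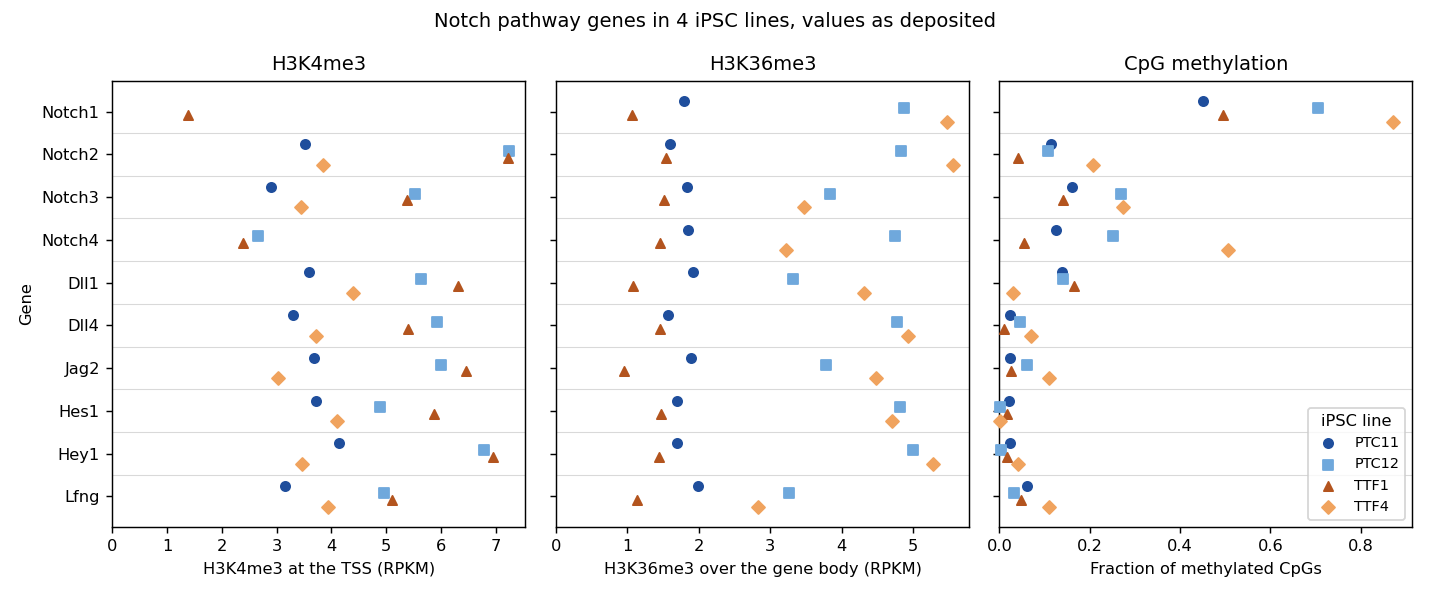
Values of the 10 Notch pathway genes as deposited, with 1 point per iPSC line: H3K4me3 at the TSS and H3K36me3 over the gene body in RPKM, and the fraction of methylated CpGs around the TSS. Notch1 had an H3K4me3 value in TTF1 only and Notch4 in PTC12 and TTF1 only, and in H3K36me3 PTC12 and TTF4 lie to the right of PTC11 and TTF1 at every gene.

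Among the receptors, Notch2 carried the most H3K4me3. Notch2 had 3.51 RPKM in PTC11 and 7.25 in PTC12, against 7.22 in TTF1 and 3.84 in TTF4, which placed it at the 39.0, 93.8, 87.1 and 60.8 percentile of the genes with a value in the same line. Notch3, the receptor known from vascular smooth muscle, had 2.89 RPKM in PTC11 and 5.53 in PTC12, against 5.38 in TTF1 and 3.44 in TTF4. At both receptors PTC12 and TTF1 were high and PTC11 and TTF4 low, so that PTC and TTF lines overlapped. Notch4, which is best known from endothelium, had 2.67 RPKM in PTC12 and 2.39 in TTF1, at the 16.8 percentile of PTC12 and lower in TTF1, and no value in PTC11 or TTF4. The lines in which Notch4 had a value were those with more genes carrying H3K4me3, 19990 in PTC12 and 19448 in TTF1 against 15114 in PTC11 and 15368 in TTF4. Notch1, the receptor of T cell fate and somite formation, had 1.39 RPKM in TTF1, at the 6.47 percentile, and no value in the other lines. Notch1 and Notch4 could therefore not be tested for H3K4me3.

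The ligands all carried H3K4me3 in every line. Dll1, a Delta type ligand that acts in somites and neural progenitors, had 3.60 RPKM in PTC11 and 5.63 in PTC12, against 6.32 in TTF1 and 4.40 in TTF4. Its mean was 4.61 ± 1.44 (SD, n = 2) in PTC and 5.36 ± 1.36 (SD, n = 2) in TTF iPSCs. Both TTF lines of Dll1 exceeded PTC11, and TTF4 lay below PTC12. Dll4, the Delta type ligand of sprouting vessels, had 3.30 RPKM in PTC11 and 5.94 in PTC12, against 5.39 in TTF1 and 3.72 in TTF4. Jag2, a Serrate type ligand, had 3.69 RPKM in PTC11 and 6.01 in PTC12, against 6.46 in TTF1 and 3.02 in TTF4. The lowest and the highest Jag2 values were thus both in TTF lines.

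The targets Hes1 and Hey1, which encode repressors of the basic helix-loop-helix class, also carried H3K4me3 in every line. Hes1 had 3.72 RPKM of H3K4me3 in PTC11 and 4.88 in PTC12, against 5.88 in TTF1 and 4.10 in TTF4. Hey1 had 4.13 RPKM in PTC11 and 6.78 in PTC12, against 6.95 in TTF1 and 3.45 in TTF4. In PTC11 Hey1 was the highest of the 8 members with a value, and in TTF4 it was the third lowest. Lfng, a glycosyltransferase that adds sugar to Notch and alters its response to ligands, had 3.15 RPKM in PTC11 and 4.96 in PTC12, against 5.10 in TTF1 and 3.95 in TTF4. PTC and TTF values overlapped at all of these genes.

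The comparison of PTC with TTF iPSCs asks whether the pathway keeps a trace of the cell of origin. No member was called for H3K4me3: 0 of 8 had a limma adjusted p under 0.05, against 0.481% of the 13709 genes with a value in all 4 lines. When genes averaging below 1 RPKM were left out, all 8 members stayed and 0 of 13536 genes were called. The 0.481% is therefore not a rate to hold the members against. On the log2(RPKM + 1) scale, which understates the change of low genes, TTF minus PTC was largest at Dll1, with 0.19 ± 0.47 (SE, limma 95% interval −0.74 to 1.11, adjusted p = 1). It was lowest at Hey1, with −0.09 and an interval of −1.06 to 0.88. No member had an unadjusted p under 0.05, and the smallest was 0.690, at Dll1. The median difference of the 8 members was 0.06, beside 0.04 over all genes tested. At none of the 8 members were both TTF lines above both PTC lines, against 5.04% of all genes, and at none were both below, against 3.17%. PTC12 and TTF1 were both above PTC11 and TTF4 at 8 of 8 members, an order that 81.4% of all genes shared. The intervals allow differences of up to about 1 on the log2 scale in either direction, so equality was not shown. Their width, here and for H3K36me3, came from the variance trend over all genes and not from the member's own lines.

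H3K36me3 was measured over the whole gene body, and all 10 members had a value in each line. By this mark Notch1 was not set apart. Notch1 had 1.80 RPKM in PTC11 and 4.87 in PTC12, against 1.06 in TTF1 and 5.48 in TTF4, at the 67.8, 72.0, 38.6 and 82.0 percentile of the line. Notch2 had 1.59 RPKM in PTC11 and 4.83 in PTC12, against 1.54 in TTF1 and 5.55 in TTF4. Notch3 had 1.84 RPKM in PTC11 and 3.83 in PTC12, against 1.51 in TTF1 and 3.47 in TTF4. Each receptor was high in PTC12 and TTF4 and low in PTC11 and TTF1. Notch4 followed the same order, with 1.85 RPKM in PTC11 and 4.75 in PTC12, against 1.45 in TTF1 and 3.22 in TTF4, although no H3K4me3 peak was kept at its start in PTC11 or TTF4.

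The ligands also carried H3K36me3 in every line. Dll1 had 1.91 RPKM in PTC11 and 3.32 in PTC12, against 1.08 in TTF1 and 4.31 in TTF4. Dll4 had 1.57 RPKM in PTC11 and 4.77 in PTC12, against 1.46 in TTF1 and 4.92 in TTF4. Jag2 had 1.88 RPKM in PTC11 and 3.77 in PTC12, against 0.957 in TTF1 and 4.47 in TTF4. TTF1 was the lowest line and TTF4 the highest at all of the ligands. Hes1 had 1.69 RPKM in PTC11 and 4.81 in PTC12, against 1.48 in TTF1 and 4.71 in TTF4. Hey1 had 1.69 RPKM in PTC11 and 4.99 in PTC12, against 1.44 in TTF1 and 5.28 in TTF4. Lfng had 1.98 RPKM in PTC11 and 3.26 in PTC12, against 1.13 in TTF1 and 2.83 in TTF4. Lfng was the highest member in PTC11, at the 79.8 percentile of the line, and the lowest in PTC12 and in TTF4, where it was at the 33.1 and 19.3 percentile.

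None of the 10 members was called for H3K36me3, against 0.112% of 17039 genes by limma. Here too the share is no yardstick for the members. Leaving out genes that averaged below 1 RPKM kept all 10 members, and 0 of 16521 genes were then called. The difference TTF minus PTC was lowest at Notch4, with −0.33 ± 1.05 (SE, limma 95% interval −2.38 to 1.72, adjusted p = 1), and highest at Notch2, with 0.07 and an interval of −2.17 to 2.31. No unadjusted p was under 0.05, and the smallest was 0.729, at Lfng. The members had a median difference of −0.12 on the log2(RPKM + 1) scale and all genes one of −0.14, so the members' median was close to that of the whole table. Quantile normalization shifted the median of all genes from −0.14 to 0.01, and that of the members to −0.02. Both TTF lines were above both PTC lines at 0 of 10 members, against 0.452% of all genes, and below at 0 of 10, against 3.05%. PTC12 and TTF4 were both above PTC11 and TTF1 at 10 of 10 members and at 93.6% of all genes. PTC12 was thus the higher PTC line in both marks at each member tested in both, while the higher TTF line was TTF1 in H3K4me3 and TTF4 in H3K36me3. From its read coverage, the paper describes the opposite H3K36me3 order at Jag1 and Gata3, with PTC11 and TTF1 the higher lines. The reason for this disagreement was not tested.

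**Figure D2:**
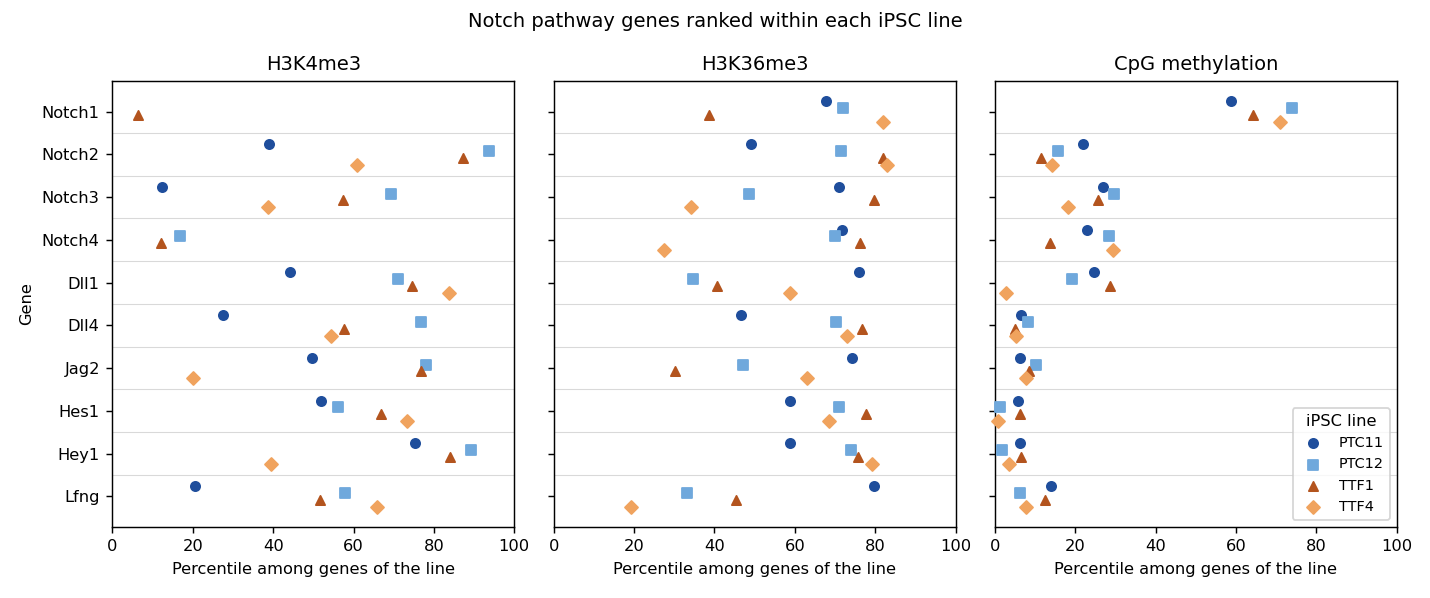
Percentile of each Notch pathway gene among all genes with a value in the same line, on a scale of 0 to 100, with 1 point per line. Notch1 lies at the 6.47 percentile of H3K4me3 in TTF1 and between the 58.7 and 73.8 percentile of methylation, while Hes1 lies at or below the 6.11 percentile of methylation.

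CpG methylation was read by nanopore sequencing as the fraction of methylated CpGs around the TSS. The target genes were among the least methylated members, although Dll4 was lower than both in TTF1. Jag2 in PTC11 and Dll1 in TTF4 were also lower than Hey1. Hes1 had a fraction of 0.0204 in PTC11 and 0.00206 in PTC12, against 0.0158 in TTF1 and 0.00118 in TTF4. Hey1 had 0.0226 in PTC11 and 0.00390 in PTC12, against 0.0172 in TTF1 and 0.0406 in TTF4. These starts were almost free of methylation in all lines, also in TTF4, whose mean over all genes was 0.649. The listed windows of Hes1 and Hey1 held 172 and 167 CpGs within 1000 bp.

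Among the ligands, Dll4 had a methylated fraction of 0.0230 in PTC11 and 0.0459 in PTC12, against 0.0109 in TTF1 and 0.0687 in TTF4. Jag2 had 0.0222 in PTC11 and 0.0602 in PTC12, against 0.0254 in TTF1 and 0.109 in TTF4. TTF4 was the highest line at Dll4 and Jag2. Dll1 had 0.139 in PTC11 and 0.141 in PTC12, against 0.166 in TTF1 and 0.0289 in TTF4. At Dll1 the order was turned, with TTF4 the lowest line, at the 2.72 percentile of that line against the 19.1 to 28.6 percentile in the others. Lfng had 0.0611 in PTC11 and 0.0318 in PTC12, against 0.0472 in TTF1 and 0.11 in TTF4.

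The receptors ranged from fractions close to those of the ligands, at Notch2, to the highest of all members, at Notch1. Notch2 had a fraction of 0.114 in PTC11 and 0.107 in PTC12, against 0.0408 in TTF1 and 0.208 in TTF4. Notch3 had 0.161 in PTC11 and 0.270 in PTC12, against 0.140 in TTF1 and 0.273 in TTF4. Notch4 had 0.124 in PTC11 and 0.251 in PTC12, against 0.0542 in TTF1 and 0.505 in TTF4. The lowest and highest values of Notch2 and of Notch4 were both in TTF lines. Notch1 had 0.450 in PTC11 and 0.705 in PTC12, against 0.495 in TTF1 and 0.871 in TTF4, a mean of 0.577 ± 0.180 (SD, n = 2) in PTC and 0.683 ± 0.266 (SD, n = 2) in TTF iPSCs. Notch1 exceeded the mean of its line by 0.0781 in PTC11 and 0.223 in PTC12, and by 0.116 in TTF1 and 0.222 in TTF4. All of the other members lay below the mean of the line in every line. So did the median of the 16275 protein coding genes listed within 1000 bp of their principal start. Within 1000 bp of the listed start the members held a median of 118 CpGs, against 25 over all genes.

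Members with fewer CpGs near the listed start tended to have higher fractions. Over the 10 genes, Spearman's rho between the number of CpGs within 1000 bp and the fraction was −0.867 in PTC11 and −0.794 in PTC12, and −0.697 in TTF1 and −0.588 in TTF4. Without Notch1 it was −0.867, −0.75, −0.633 and −0.45 over 9 genes. The points of a line share its library and the lines share the reference sequence, so these are descriptions. Notch1 and Notch4 had similar numbers of CpGs, 28 and 26, and Notch1 had the higher fraction of the 2 in each line.

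**Figure D3:**
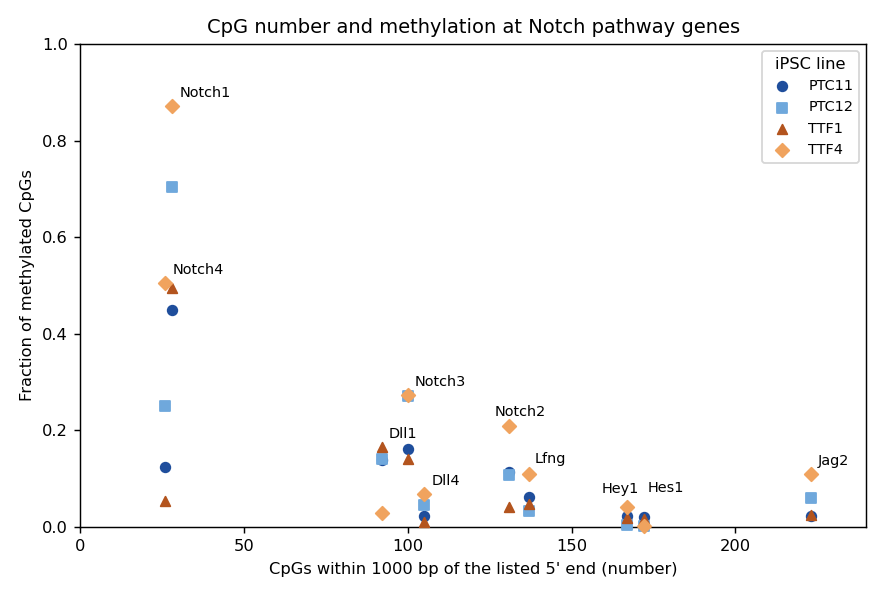
Fraction of methylated CpGs, from 0 to 1, against the number of CpGs within 1000 bp of the listed 5′ end for the 10 Notch pathway genes, with 1 point per iPSC line. Notch1 with 28 CpGs and Notch4 with 26 lie at the left, and the other genes lie below a fraction of 0.3.

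The fractions were centred on the mean of each line before origins were compared. No member was called, 0 of 10 by limma, against 0.00395% of 50657 genes. TTF minus PTC was lowest at Dll1, with −0.130 ± 0.134 (SE, limma 95% interval −0.397 to 0.138, unadjusted p = 0.336, adjusted p = 1.00), which had the smallest p of the members, and 0 of 10 had an unadjusted p under 0.05. It was highest at Notch1, with 0.0185 and an interval of −0.293 to 0.330. At Notch3 both TTF lines lay below both PTC lines after centring, though not as deposited, by a mean of −0.0959 with an interval of −0.362 to 0.170, and Notch3 was the only member of 10 with this order, against 12.8% of all genes. No member had both TTF lines above, against 15% of all genes. The members had a median difference of −0.0723 and all genes one of −0.0100. As deposited, TTF4 was the highest line at 8 of 10 members, and at 75.4% of all genes. Without centring, the median difference was 0.0148 over the members and 0.0771 over all genes, so the sign of the median over the members depends on the centring.

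**Figure D4:**
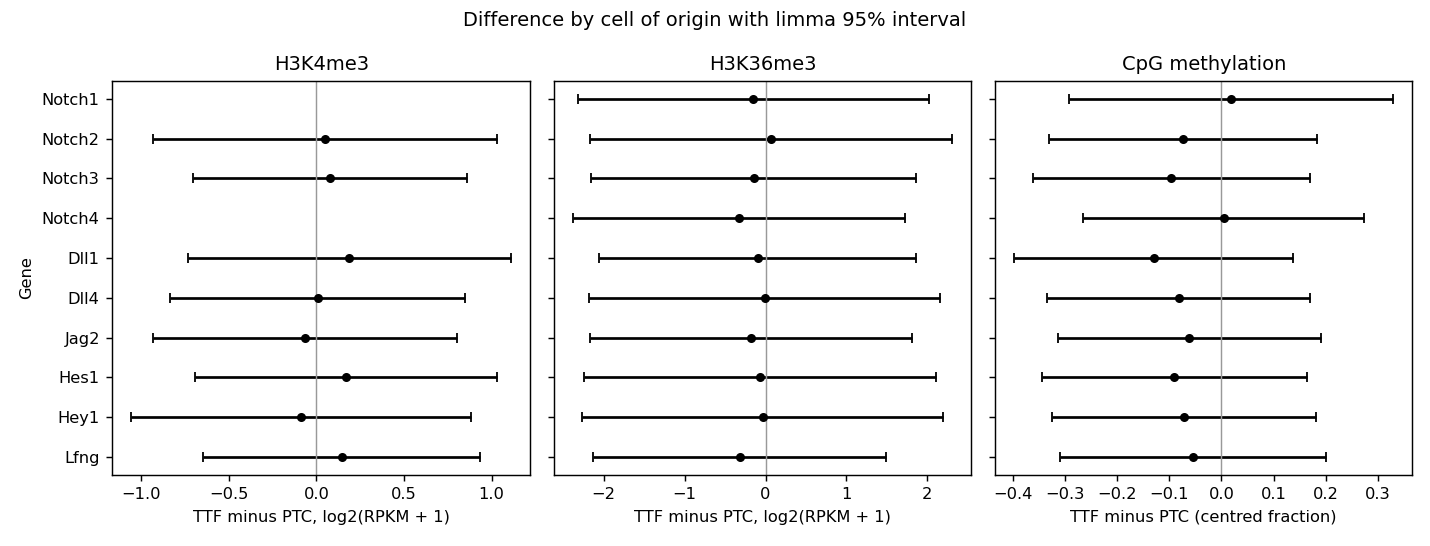
Difference TTF minus PTC at each tested member, as points with the limma 95% interval as bars, on the log2(RPKM + 1) scale for both histone marks and as centred fraction for methylation. Every interval crosses 0, and the H3K36me3 intervals are the widest, reaching from −2.38 at Notch4 to 2.31 at Notch2.

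H3K27me3, a mark of genes held silent by Polycomb proteins, had no value at any member. This mark had a value at only 69 and 144 genes in the PTC libraries, both labelled PTC11, and at 52 genes in TTF1 and 11 in TTF4. Whether Notch genes carried it was not detectable in these libraries.

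A wider list held 53 other genes of the pathway, among them further ligands, Rbpj, coactivators, proteases and Hes or Hey relatives. For H3K4me3, 45 of them were tested and 0 were called by limma, with a median difference of 0.11. Hes3 was the 1 gene with both TTF lines above both PTC lines, at 2.65 RPKM in PTC11 and 2.81 in PTC12, against 3.04 in TTF1 and 3.73 in TTF4, and no gene had both below. These orders were seen at 5.04% and 3.17% of all genes. For H3K36me3, 49 were tested and 0 called, with a median difference of −0.14. Both TTF lines were lower at 2 of these, Ccnc, a cyclin of the Mediator kinase module, and Hes2. Ccnc had 1.73 RPKM in PTC11 and 3.28 in PTC12, against 0.937 in TTF1 and 1.69 in TTF4. The lower order was found at 3.05% of all genes. For methylation, 53 were tested and 0 called, with a median difference of −0.0603, and TTF4 was the highest line at 33 of 53, against 75.4% of all genes. After centring, both TTF lines were higher at 3 of the 53 genes and lower at 5, against 15% and 12.8% of all genes.

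Heyl, a relative of Hey1, had the largest difference among the genes with both TTF lines higher in methylation, with fractions of 0.134 in PTC11 and 0.175 in PTC12, against 0.348 in TTF1 and 0.652 in TTF4. TTF minus PTC at Heyl was 0.259 ± 0.140 after centring (SE, limma unadjusted p = 0.0692, adjusted p = 1.00). Dtx1, a ubiquitin ligase that acts on Notch, was next with 0.165. Among the genes with both TTF lines lower, Maml2, a coactivator, had −0.193 and Hes6, a Hes relative, −0.114. As deposited, the PTC and TTF fractions overlapped at Dtx1, Maml2 and Hes6. Their unadjusted limma p was 0.260, 0.151 and 0.373 in that order. Jag1, a Serrate type ligand active in the developing nephron, was high in PTC12 and TTF1 in H3K4me3, like the ligands above. Its H3K4me3 was 3.63 RPKM in PTC11 and 5.32 in PTC12, against 6.02 in TTF1 and 4.09 in TTF4, and its methylated fraction did not exceed 0.0167 in any line. Jag1 had 1.95 RPKM of H3K36me3 in PTC11 and 3.72 in PTC12, against 1.33 in TTF1 and 4.42 in TTF4. That is the reverse of the order the paper describes at Jag1.

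Rbpj, the DNA binding partner of all 4 receptors, had a methylated fraction of 0.323 in PTC11 and 0.074 in PTC12, against 0.227 in TTF1 and 0.924 in TTF4. These fractions span a wide range within each origin. The difference of 0.290 at Rbpj had an unadjusted p of 0.0646 and an adjusted p of 1.00 in limma, the lowest p in the list, and PTC and TTF lines overlapped. Without line TTF1 the difference was 0.503, with TTF4 then the only TTF line. Rbpj is listed 124319 bp from the start of its principal transcript in the methylation table, in a window with 30 CpGs against 190 at the principal start, and the histone table lists another 5′ end. Its H3K4me3 was 4.53 RPKM in PTC11, 3.08 in PTC12 and 2.98 in TTF1, with no value in TTF4.

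The genes most like each member were sought among 8772 genes with all 12 values, by the Euclidean distance between profiles over 4 lines and 3 assays, each assay divided by its SD over all values. The closest pair was Hes1 and Frmd6, at 0.374 against a median of 1.80 to all genes. The nearest of 8772 genes lies below such a median by definition, and nearest distances of other genes were not computed. Hey1 was closest to Rfx1, at 0.433, and Dll4 to Npas2, at 0.455. Notch3 was closest to Tenm2, Notch2 to Lbr, Jag2 to Prdm6, Lfng to Ntng2 and Dll1 to Snx30, with distances of 0.516 to 0.651. No member was the nearest gene of another member.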

How the data were processed

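H3K4me3, H3K36me3 and CpG methylation were read in 4 iPSC lines, and H3K27me3 in 4 libraries that no test used. For each gene and library the authors deposited a histone mark level in RPKM. Their reads were aligned to mm10 with Bowtie2 2.1.0, peaks were called with MACS2 2.0.10, and input-subtracted RPKM was averaged over the peaks at the TSS or gene body. The methylation values are fractions that the authors deposited per gene, from nanopore reads aligned with minimap2 2.17-r941 and averaged over windows around the TSS. Peak calling decides which genes can be compared, and the averages hide the depth behind each value. The SE therefore rests on variation among lines as limma pools it over genes. For both histone marks the SE followed the variance trend over all genes. It depended on the mean level of a gene and not on how far its own lines lay apart. For methylation a gene's own lines entered the SE as well.

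Genes measured in each of the 4 lines entered limma 3.58.1 in R 4.3.3 (lmFit, then eBayes with a variance trend). The scale was log2(RPKM + 1), or the fraction centred on the mean of its line. All genes tested shared the Benjamini-Hochberg adjustment, and the threshold was 0.05. A percentile is the rank of a gene among the genes with a value in the same line. CpGs were counted in the reference sequence, and TSS distances taken from GENCODE M21. The fit was first run on simulated data as a check of the code. The planted changes were larger than any difference at the members, so no power is claimed from it. Alternatives were the pseudocount (0.1), a minimum mean of 1 RPKM, genes with missing values, quantile normalization, centring, chromosomes X and Y, the variance trend, and each line left out in turn. Every member is named. Of the other pathway genes those named were any called, Jag1, Rbpj, and in each assay up to 2 rises and 2 falls of largest size among genes whose TTF lines both lay on 1 side of both PTC lines. The members and the lists were chosen with earlier results of these data known. Tables were handled in pandas 2.3.3 under Python 3.11.15.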

Additional observations from a re-analysis of the deposited data

How the results depend on the processing

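No member was called by limma under any alternative. The smallest adjusted p was 0.991 over 72 values for H3K4me3, 0.878 over 90 for H3K36me3 and 0.181 over 90 for methylation. No paired analysis was possible because no line is tied to a named mouse in the sources used here. With 2 lines per origin the intervals are wide, and depth was unknown, so smaller differences could not be detected.

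The number of all genes called, the background beside the members, was less stable, and the cause was not tested. For H3K4me3 it was 66, and it was 183 with missing values kept, 102 with a pseudocount of 0.1, and 0 with a minimum of 1 RPKM, without the variance trend and with quantile normalization, where 14, 3 and 318 genes had an unadjusted p under 0.05. For H3K36me3 it was 19, and it was 29 with missing values kept, 44 with a pseudocount of 0.1, and 0 with a minimum of 1 RPKM, without the trend and with quantile normalization, where 4, 4 and 502 genes had an unadjusted p under 0.05. For methylation it was 2, and it was 4 with missing values kept, 9 without X and Y, 1 without the trend, and 0 without centring and with quantile normalization, where 1006 and 2438 genes had an unadjusted p under 0.05. Leaving out each line in turn gave 78 to 138 genes for H3K4me3, 1 to 53 for H3K36me3 and 0 to 1003 for methylation, the highest of these without TTF1. In the wider pathway list, the methylation difference at Rbpj without TTF1 rested on TTF4 alone. A lone line is then assumed to vary like the other groups.

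Differences TTF minus PTC changed sign at several members. Beyond the effect of centring given below, the cause was not tested. With a line left out, medians over all genes changed sign too. Without PTC11, PTC12, TTF1 and TTF4 in turn, the all-gene H3K36me3 medians were −0.60, 0.33, 0.46 and −0.72. Those of the members were −0.59, 0.31, 0.57 and −0.72. For H3K4me3 the all-gene medians were −0.16, 0.26, −0.21 and 0.29, and the members' −0.32, 0.38, −0.20 and 0.36. For methylation they were −0.0032, −0.0162, −0.0102 and 0.0159, and the members' −0.0254, −0.125, −0.162 and 0.0284. Quantile normalization turned H3K36me3 to 0.0097 at Notch3, 0.19 at Dll4, 0.11 at Hes1 and 0.14 at Hey1, and methylation to −0.0394 at Notch4 and 0.00626 at Hey1. Without centring, methylation turned to 0.0140 at Notch2, 0.00531 at Dll4, 0.0260 at Jag2, 0.0156 at Hey1 and 0.0320 at Lfng. At starts with hardly any methylation, a centred difference is set mostly by the line means. Hes1 had a deposited fraction of 0.0204 at most. Its difference over all 4 lines was −0.0898 centred and −0.00275 without centring. The methylation ranges below are of centred fractions too, the −0.232 at Hes1 included. With each line left out in turn, H3K4me3 differences ran from −0.39 to 0.48 at Notch2, −0.30 to 0.45 at Notch3, −0.076 to 0.45 at Dll1, −0.34 to 0.35 at Dll4, −0.51 to 0.38 at Jag2, −0.047 to 0.38 at Hes1, −0.50 to 0.33 at Hey1 and −0.12 to 0.41 at Lfng. H3K36me3 differences ran from −0.97 to 0.68 at Notch1, −0.61 to 0.75 at Notch2, −0.56 to 0.27 at Notch3, −0.84 to 0.18 at Notch4, −0.77 to 0.58 at Dll1, −0.64 to 0.62 at Dll4, −0.92 to 0.56 at Jag2, −0.68 to 0.53 at Hes1, −0.72 to 0.64 at Hey1 and −0.74 to 0.10 at Lfng. Methylation differences ran from −0.0540 to 0.0910 at Notch1, −0.0854 to 0.0949 at Notch4, −0.333 to 0.0743 at Dll1, −0.188 to 0.0245 at Dll4, −0.155 to 0.0323 at Jag2, −0.232 to 0.0527 at Hes1, −0.195 to 0.0521 at Hey1 and −0.159 to 0.0489 at Lfng, and stayed below 0 at Notch2 and Notch3.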
